A study of Mus musculus with 20 samples.

Results

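The Sprouty and Spred genes and Phlda1 were read in mouse hippocampal cultures exposed to NMDA receptor antagonists. The members were Spry1, Spry2, Spry4, Spred1, Spred2, Spred3 and Phlda1, and they were found by matching the gene name that the array annotation gives each non-control probe. These 7 genes had 12 of the 41174 probes on the array, and 11 of those probes were bright enough to test. The cultures were dissociated hippocampal neurons on day 21 in vitro, treated for 24 h with 100 µM AP5, 100 nM NVP-AAM077 (NVP), 1 µM of a compound called Ro25 here, or vehicle (control). AP5 is a competitive NMDA receptor antagonist, and NVP is a competitive antagonist that prefers receptors containing the Grin2a subunit. No subunit preference is given for Ro25, whose code number as labelled is unfamiliar. The antagonist doses differ, so the antagonists are set side by side as treatments and not as matched compounds.

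Each of the 4 groups held 5 arrays. Culture RNA in Cy5 was hybridised on every array together with a universal mouse reference RNA in Cy3, and values are log2(Cy5/Cy3) after background correction and loess normalization. A difference between groups of 1 on this scale is a 2-fold change. The labels do not say whether replicates were separate cultures, so the p-values reflect variation among these samples, possibly technical, and precision is limited by 5 arrays a group. The labels call the samples neurons, but astrocyte markers were well above the reference as well as neuronal ones. Snap25, a synaptic vesicle fusion protein of neurons, ranged from 6.80 to 7.97 in AP5 arrays, 7.57 to 8.04 in NVP arrays, 7.62 to 8.0 in Ro25 arrays and 7.65 to 8.05 in control arrays. Gfap, the intermediate filament of astrocytes, ranged from 2.82 to 6.58 in AP5 arrays, 3.56 to 6.30 in NVP arrays, 3.50 to 6.45 in Ro25 arrays and 3.98 to 5.89 in control arrays. In such mixed samples, fewer cells of a type and less RNA per cell cannot be told apart. The arrays lay on 7 slides, and AP5 and control arrays never shared one, nor did NVP and control arrays.

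Growth factors and synaptic calcium entry both activate the small GTPase Ras, which drives the kinase relay of Raf, MEK and ERK. ERK in turn induces transcription factor genes and a set of genes that brake the relay. Sprouty proteins are membrane-associated feedback inhibitors that act on receptor tyrosine kinase signalling upstream of ERK, and Spry1, Spry2 and Spry4 are known in many tissues as genes that ERK activity induces. Spred proteins carry an EVH1 domain and the Sprouty-related cysteine-rich domain. They recruit neurofibromin, the product of Nf1, to the membrane, where it switches Ras off. Phlda1 is a small protein with a pleckstrin homology-like domain whose transcript is often read with the Sprouty genes as a sign of ERK output.

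Promoters of Spred1 and Spred2 are shown because the brightest probes of these paralogs went in opposite directions with AP5. No other probe of either gene passed in AP5 against control. Each sequence runs 5′ to 3′ on the gene's strand, from 250 bases before the RefSeq transcription start to 50 bases after it, on build GRCm38.p6. Capitals mark matches to the cyclic AMP response element core TGACG and to the GC box GGGCGG on either strand, and no match of one overlapped a match of the other. The Spred1 stretch is chr2:117120821-117121120 on the plus strand, and the Spred2 stretch is chr11:19924192-19924491 on the plus strand.
Spred1: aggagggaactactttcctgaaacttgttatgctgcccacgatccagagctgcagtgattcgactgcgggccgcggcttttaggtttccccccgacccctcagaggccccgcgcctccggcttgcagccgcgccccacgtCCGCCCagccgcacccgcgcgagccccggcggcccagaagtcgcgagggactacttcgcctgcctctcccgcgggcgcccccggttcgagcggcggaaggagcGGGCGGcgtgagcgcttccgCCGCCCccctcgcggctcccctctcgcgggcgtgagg
Spred2: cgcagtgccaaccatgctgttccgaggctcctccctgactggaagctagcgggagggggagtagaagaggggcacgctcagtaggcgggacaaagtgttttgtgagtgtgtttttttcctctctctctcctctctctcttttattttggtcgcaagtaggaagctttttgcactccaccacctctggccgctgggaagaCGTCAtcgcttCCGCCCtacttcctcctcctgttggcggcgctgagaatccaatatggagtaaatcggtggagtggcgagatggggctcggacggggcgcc
RefSeq promoters were at hand for 5 of the 7 members, which leaves out Spry4 and Phlda1. The TGACG core was present in 1 of those 5, Spred2, at 51 to 47 bases before the start, and in 20.8% of all 32851 promoters of the same length. A GC box was present in 4 of the 5 (not in Spry2) and in 35.7% of all promoters. The 5 stretches were 55% (Spred3) to 72.3% (Spred1) G and C, above the median of 52.7% over all promoters. The shares over all promoters were not matched for this. The AP-1 motif TGANTCA was in 0 of the 5 and in 7.81% of all promoters, and the serum response factor motif known as the CArG box was in 0 of the 5 and in 1.63% of all promoters. These matches describe letters in this window and say nothing of factor binding.

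With AP5, 5 of the 7 members were lower than in control, 1 was higher and 1 did not pass the test. Spry4 (1.84-fold), Phlda1 (1.64-fold), Spred3 (1.60-fold), Spred2 (1.35-fold) and Spry1 (1.33-fold) fell, Spred1 rose 1.25-fold, and Spry2 was 1.48-fold lower without passing. The test was limma with one mean per group over the 20 arrays and Benjamini-Hochberg adjustment over all 19344 genes tested, at an adjusted p of 0.05. By that rule 6.12% of all genes differed between AP5 and control, 3.59% lower (694 genes) and 2.53% higher (489 genes). The median of the 7 log2 differences was −0.57, beside −0.01 over all genes tested. With the scanner's own processed signals the same comparison called 800 genes higher and 735 lower, and again 6 of the 7 members.

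**Figure D1:**
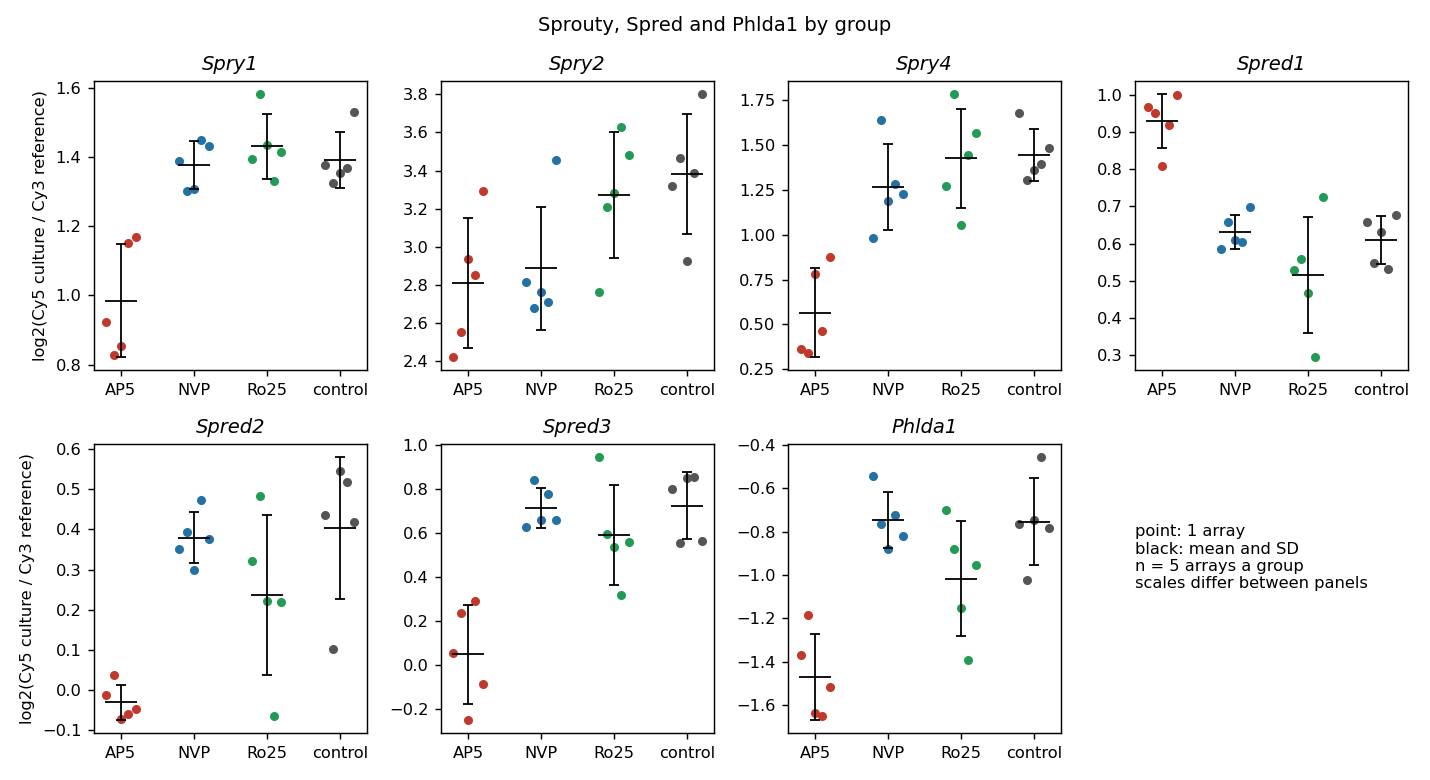
Log2(Cy5/Cy3) of each member on every array, by treatment group, with the mean and SD (n = 5 arrays a group) in black. The AP5 points lie apart from the control points in every panel except Spry2, below them for Spry1, Spry4, Spred2, Spred3 and Phlda1 and above them for Spred1.

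Spry1, an inhibitor of receptor tyrosine kinase signalling best known from kidney development, was read from 1 probe. In AP5 arrays 1 to 5 its log2 ratio was 0.92, 0.83, 0.85, 1.15 and 1.17, in NVP arrays 1.39, 1.30, 1.31, 1.45 and 1.43, in Ro25 arrays 1.39, 1.58, 1.43, 1.33 and 1.41, and in control arrays 1.38, 1.33, 1.35, 1.37 and 1.53. All 5 AP5 arrays were below every array of the other groups, while the NVP, Ro25 and control arrays overlapped. AP5 arrays averaged 0.98 ± 0.16 and control arrays 1.39 ± 0.08 (SD, n = 5 each). The difference was −0.41 (SE 0.073, 95% interval −0.56 to −0.25, limma adjusted p = 0.0014).

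Spry4, a Sprouty that blocks ERK activation by vascular and fibroblast growth factors, showed the widest gap of the 7. Its log2 ratio was 0.36, 0.34, 0.78, 0.46 and 0.88 in AP5 arrays, 0.98, 1.64, 1.19, 1.29 and 1.23 in NVP arrays, 1.27, 1.78, 1.06, 1.45 and 1.57 in Ro25 arrays, and 1.68, 1.30, 1.36, 1.40 and 1.49 in control arrays. The AP5 arrays again lay below all others, and the remaining groups overlapped. AP5 arrays averaged 0.56 ± 0.25 and control arrays 1.45 ± 0.15 (SD, n = 5 each), a difference of −0.88 (SE 0.14, 95% interval −1.17 to −0.59, limma adjusted p = 0.00041). The probe read is dim, with a mean red signal of 165 in AP5 and 305 in control arrays over local backgrounds of 57.6 and 49.1. On none of the 20 arrays was a second Spry4 probe well above background, and it was not tested.

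Spry2, the most studied Sprouty and an adaptor of the ubiquitin ligase Cbl, varied more between arrays of a group. Its log2 ratio was 2.42, 2.55, 2.94, 2.85 and 3.29 in AP5 arrays, 2.82, 2.68, 2.76, 2.71 and 3.46 in NVP arrays, 2.76, 3.21, 3.28, 3.63 and 3.48 in Ro25 arrays, and 3.32, 3.46, 2.92, 3.39 and 3.80 in control arrays. The AP5 and control arrays overlapped. AP5 arrays averaged 2.81 ± 0.34 and control arrays 3.38 ± 0.31 (SD, n = 5 each), a difference of −0.57 (SE 0.19, 95% interval −0.97 to −0.17, limma adjusted p = 0.092). Of the 10 fits that left out 1 AP5 or control array, 2 passed and 8 did not. The difference ran from −0.69 (limma adjusted p = 0.038, without AP5 array 5) to −0.46 (limma adjusted p = 0.22, without control array 5), and the other fit that passed left out control array 3 (−0.68, limma adjusted p = 0.044). With replicate number as a block, Spry2 passed (−0.57, SE 0.13, limma adjusted p = 0.017). A second, dimmer Spry2 probe differed by −0.12 (SE 0.070, 95% interval −0.27 to 0.03, limma adjusted p = 0.43 over all probes).

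Spry2 varied with the astrocyte marker level of the arrays. Among the AP5 arrays, the mean log2 ratio of 12 astrocyte markers was 2.83, 3.79, 4.17, 3.99 and 4.29, and the arrays fell in the same order for Spry2. AP5 array 1 also had the lowest mean of neuronal markers (4.17) and of oligodendrocyte lineage markers (1.71) among the 20 arrays. Its low values are thus not particular to astrocyte markers. After subtraction of group means, Pearson's r between Spry2 and this mean was 0.70 over the 20 arrays, a description of points that share the same arrays. With the oligodendrocyte lineage marker mean it was 0.59. Other members had values of similar size with other markers: Phlda1 with oligodendrocyte lineage (−0.67), Spred1 with dividing cell (−0.64) and Spry4 with microglial markers (−0.62). The slope was 0.57 per unit of the astrocyte mean (SE 0.14) for Spry2 and 0.15 (SE 0.13) for Spry4. With the astrocyte mean as a covariate, a fit chosen after seeing these data, Spry2 was −0.59 in AP5 against control (SE 0.14, limma adjusted p = 0.012) and all 7 members passed. The astrocyte markers themselves ranged from 2.83 to 4.29 in AP5 and 3.33 to 3.97 in control arrays, and 0 of 12 passed the test.

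**Figure D2:**
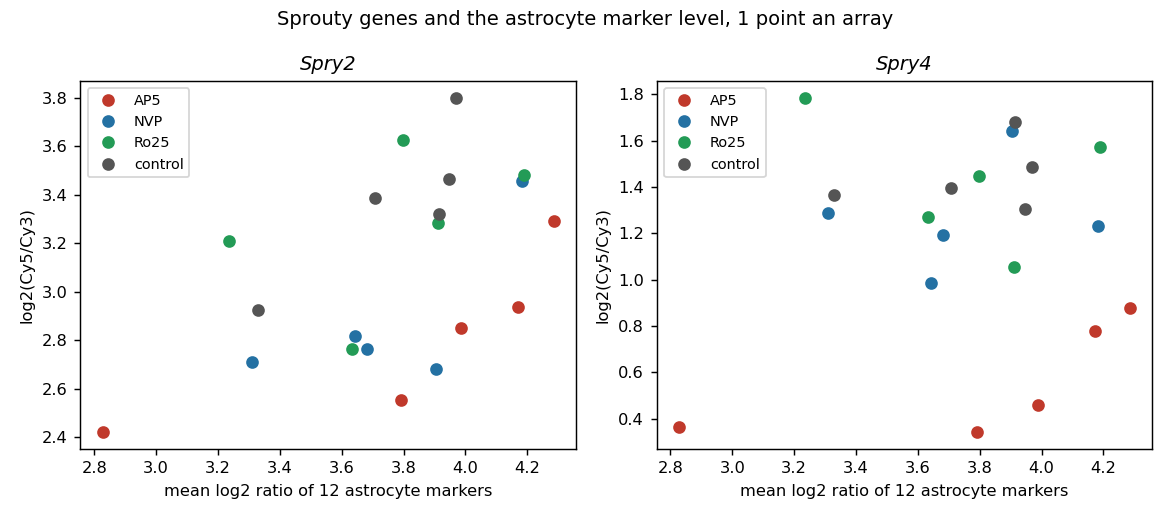
Log2(Cy5/Cy3) of Spry2 (left) and Spry4 (right) against the mean log2 ratio of 12 astrocyte markers, 1 point for each of the 20 arrays, coloured by group. Spry2 was lowest (2.42) on the AP5 array with the lowest astrocyte mean (2.83), and in the Spry4 panel the AP5 points lie below the others along the whole axis. That array, AP5 array 1, also had the lowest neuronal marker mean of the 20 (4.17).

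The fourth Sprouty gene, Spry3, is not a member, and its probe served as a relative for comparison. It averaged 1.10 ± 0.29 in AP5 and 1.13 ± 0.19 in control arrays (SD, n = 5 each). The difference was −0.04 (SE 0.13, 95% interval −0.30 to 0.23, limma adjusted p = 0.94), so a change of the size seen in Spry4 lies outside the interval.

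Spred1, whose loss in people causes Legius syndrome, was the one member that rose. The probe read for it had log2 ratios of 0.97, 0.95, 0.81, 0.92 and 1.00 in AP5 arrays, 0.58, 0.66, 0.61, 0.60 and 0.70 in NVP arrays, 0.53, 0.56, 0.47, 0.30 and 0.72 in Ro25 arrays, and 0.66, 0.55, 0.63, 0.53 and 0.68 in control arrays. Every AP5 array was above every other array, and the remaining groups overlapped. AP5 arrays averaged 0.93 ± 0.07 and control arrays 0.61 ± 0.07 (SD, n = 5 each), a difference of 0.32 (SE 0.067, 95% interval 0.18 to 0.46, limma adjusted p = 0.0052).

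The rise of Spred1 rests on that probe. It is the brightest of 3 Spred1 probes and lies further along the chromosome in the direction of transcription than the others. The array annotation ties it to a cDNA clone and the others to the RefSeq transcript. The probe nearest to it differed by 0.19 between AP5 and control (SE 0.092, 95% interval 0.00 to 0.38, limma adjusted p = 0.30 over all probes), and the third by 0.07 (SE 0.10, interval −0.14 to 0.29, limma adjusted p = 0.82). Both leaned the same way without passing, and the mean of the 3 probes differed by 0.20 (limma adjusted p = 0.082). The log2 ratios that the authors deposited as a table hold the probe nearest to the brightest one and not the brightest one itself, and there Spred1 differed by 0.21 (limma adjusted p = 0.21). Over single probes 5.06% of the 28507 tested passed in this comparison.

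Spred2, the paralog of Spred1 with a broader tissue distribution, was lower with AP5. Its log2 ratio was −0.01, 0.04, −0.07, −0.06 and −0.05 in AP5 arrays, 0.35, 0.39, 0.30, 0.47 and 0.38 in NVP arrays, 0.32, 0.48, 0.22, −0.06 and 0.22 in Ro25 arrays, and 0.44, 0.10, 0.54, 0.52 and 0.42 in control arrays. The AP5 arrays were tightly grouped and lay below all NVP and control arrays, but Ro25 array 4 fell among them. AP5 arrays averaged −0.03 ± 0.04 and control arrays 0.40 ± 0.18 (SD, n = 5 each), a difference of −0.43 (SE 0.088, 95% interval −0.62 to −0.25, limma adjusted p = 0.0044). A second, dimmer Spred2 probe gave −0.29 (SE 0.18, 95% interval −0.67 to 0.08, limma adjusted p = 0.46 over all probes), and the mean of both gave −0.36 (limma adjusted p = 0.12). The authors' table of log2 ratios holds the second probe alone, where Spred2 differed by −0.16 (limma adjusted p = 0.67).

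Spred3, the third Spred, lacks a working form of the c-Kit binding domain that its paralogs have and is expressed mainly in brain. Its log2 ratio was 0.06, 0.24, −0.25, 0.29 and −0.09 in AP5 arrays, 0.63, 0.84, 0.66, 0.78 and 0.66 in NVP arrays, 0.94, 0.59, 0.53, 0.32 and 0.56 in Ro25 arrays, and 0.80, 0.55, 0.85, 0.85 and 0.56 in control arrays. Every AP5 array was below every other array. AP5 arrays averaged 0.05 ± 0.22 and control arrays 0.72 ± 0.15 (SD, n = 5 each), a difference of −0.67 (SE 0.11, 95% interval −0.91 to −0.44, limma adjusted p = 0.00062). The single Spred3 probe is dim, and on AP5 array 3 its red signal was not well above background. The size of its fall varied with the processing. It was −0.88 (SE 0.15, limma adjusted p = 0.0010) with a background correction offset of 16 in place of 50. With the scanner's own processed signals, which also replace the loess step, it was −1.26 (SE 0.25, limma adjusted p = 0.0039).

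Phlda1 was the only member below the reference RNA on every array. Its log2 ratio was −1.37, −1.18, −1.64, −1.65 and −1.52 in AP5 arrays, −0.54, −0.76, −0.88, −0.72 and −0.82 in NVP arrays, −0.70, −0.88, −1.15, −1.39 and −0.95 in Ro25 arrays, and −0.76, −1.02, −0.75, −0.45 and −0.78 in control arrays. The AP5 arrays lay below all NVP and control arrays, and Ro25 array 4 lay within the AP5 range. AP5 arrays averaged −1.47 ± 0.20 and control arrays −0.75 ± 0.20 (SD, n = 5 each), a difference of −0.72 (SE 0.12, 95% interval −0.97 to −0.46, limma adjusted p = 0.00094).

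**Figure D3:**
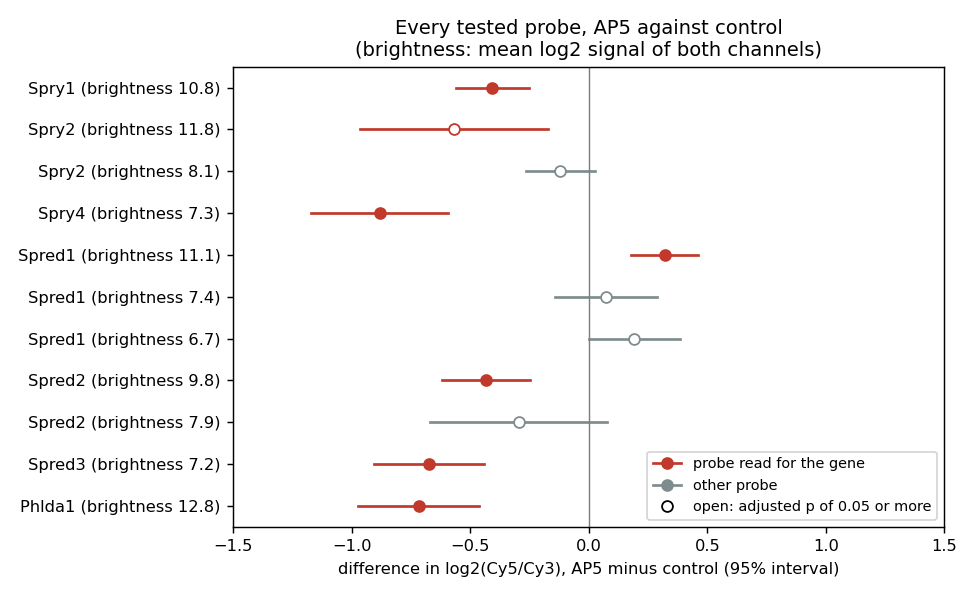
Difference in log2(Cy5/Cy3) between AP5 and control for each of the 11 tested member probes, with 95% intervals, red for the brightest probe of a gene and grey for the others. The 3 Spred1 probes all lie above 0 (0.32, 0.07 and 0.19) and both Spred2 probes below it (−0.43 and −0.29), and only the brightest probe of each passed.

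The AP5 and control arrays did not overlap in 6 of the 7 members, whereas 6.41% of all genes were separated in this way. Leaving out any single AP5 or control array kept all 6 calls. With arrays scaled by median centring in place of loess, Spry4 (−0.83) and Spred3 (−0.70) passed and the other 5 did not. With slide as a fixed block, 0 of the 7 passed. In that fit Spry4 was −0.95 (SE 0.31), Spred3 −0.86 (SE 0.26), Spred2 −0.80 (SE 0.22), Phlda1 −0.66 (SE 0.35), Spry1 −0.45 (SE 0.19), Spred1 0.35 (SE 0.18) and Spry2 0.08 (SE 0.47), with limma adjusted p of 0.16 to 0.94. The 6 called members kept their direction in it, and 41 genes passed in all, against 1183 without the block. Since slides join AP5 to control only through the other groups, the blocked values rest on AP5 arrays 1 and 5 and on control array 3. The first scan day held 17 arrays, without AP5 arrays 1 and 3 and Ro25 array 2 and with every control array. On that day alone the same 6 members passed. They also passed with slide as a random block, where the correlation between arrays of a slide was estimated at −0.04. That fit does not separate treatment from slide, since AP5 and control arrays shared none.

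**Figure D4:**
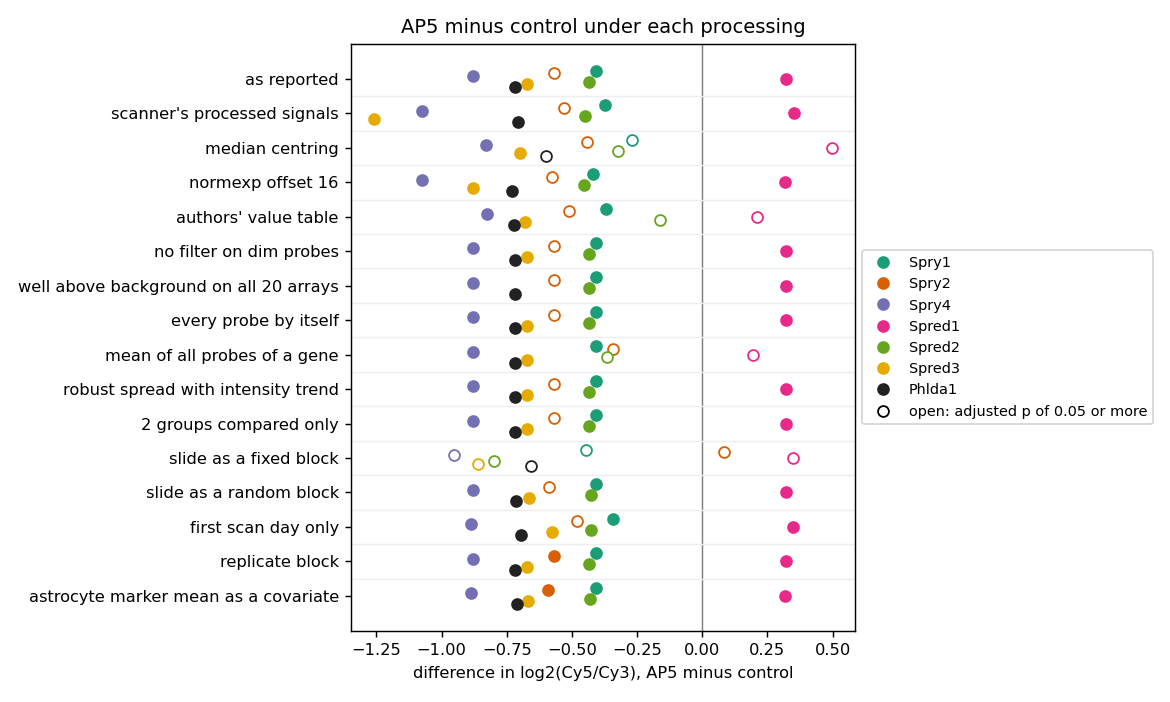
Difference in log2(Cy5/Cy3) between AP5 and control for each member (colours) under the reported processing and 15 alternatives, 1 row each; open points had an adjusted p of 0.05 or more. Each called member kept its side of 0 in every row shown, and all points are open only with slide as a fixed block.

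NVP and Ro25 left all 7 members without a call against control. In NVP against control 0 of the 7 passed, beside 0% of all genes (0 of 19344 by limma, 1136 at an unadjusted p of 0.05). In Ro25 against control 0 of the 7 passed, beside 0.0155% of all genes (3 genes, 840 at an unadjusted p of 0.05). At the unadjusted level 1 member differed in each, Spry2 with NVP and Phlda1 with Ro25. Spry2 averaged 2.89 ± 0.32 in NVP arrays and 3.38 ± 0.31 in control arrays (SD, n = 5 each), a difference of −0.49 (SE 0.19, 95% interval −0.89 to −0.09, limma adjusted p = 0.73). Phlda1 averaged −1.02 ± 0.27 in Ro25 arrays and −0.75 ± 0.20 in control arrays (SD, n = 5 each), a difference of −0.26 (SE 0.12, 95% interval −0.52 to −0.01, limma adjusted p of nearly 1).

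The intervals bound what these groups could have missed only within the reported fit, which left slide out. NVP and control arrays shared no slide, so treatment and slide cannot be told apart there. For Spry1, the NVP difference of −0.01 had an interval of −0.17 to 0.14 and the Ro25 difference of 0.04 one of −0.11 to 0.19, so both leave out the AP5 value of −0.41. For Spry4, the NVP difference of −0.18 reached from −0.47 to 0.11 and the Ro25 difference of −0.02 from −0.31 to 0.27. For Spred3, the NVP difference of −0.01 reached from −0.24 to 0.22 and the Ro25 difference of −0.13 from −0.36 to 0.10. Spred2 differed by −0.03 with NVP (−0.21 to 0.16) and by −0.17 with Ro25 (−0.35 to 0.02). Spred1 differed by 0.02 with NVP (−0.12 to 0.16) and by −0.09 with Ro25 (−0.23 to 0.04). Over the 15 alternatives other than leaving out 1 array, Spred2 ran from −0.31 to 0.30 with NVP and from −0.39 to 0.03 with Ro25. Both ranges went beyond its intervals, while Spry1, Spry4, Spred3 and Spred1 stayed within theirs. On slide 4, which held 3 Ro25 arrays and 1 control array, the 7 differences ran from −0.39 (Spred2) to 0.37 (Spry2).

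**Figure D5:**
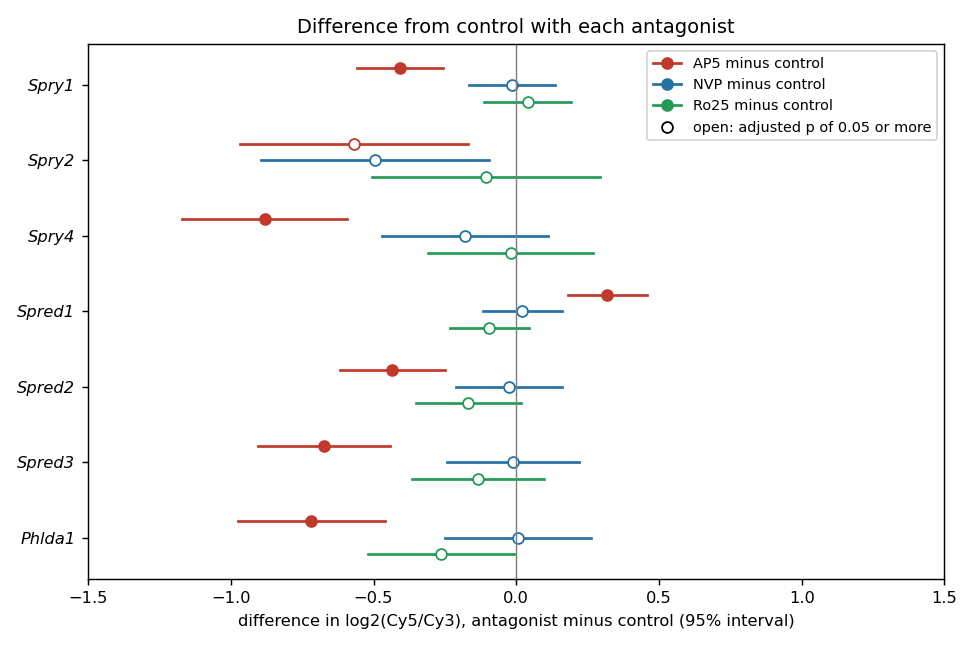
Difference from control in log2(Cy5/Cy3) for each member with AP5 (red), NVP (blue) and Ro25 (green), with 95% intervals from the 20-array fit; filled points passed an adjusted p of 0.05. The 6 filled points are all AP5, at −0.88 (Spry4) to 0.32 (Spred1), and all NVP and Ro25 points are open.

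AP5 was also set against the other antagonists, in comparisons that share the same AP5 arrays. Against NVP, 6 of the 7 members passed (5 lower, 1 higher), beside 5.77% of all genes (3.09% lower, 2.69% higher). The arrays did not overlap in the same 6, and in 6.95% of all genes. Spry1 (−0.39), Spry4 (−0.70), Spred2 (−0.41), Spred3 (−0.66) and Phlda1 (−0.72) were lower and Spred1 (0.30) was higher, with limma adjusted p of 0.00092 to 0.0092. Spry2 differed by −0.08 (95% interval −0.47 to 0.32, limma adjusted p = 0.91). On slide 2, which held AP5 array 5 and 3 NVP arrays, the differences were −0.19 for Spry1, −0.50 for Spry4, −0.44 for Spred2, −0.84 for Spred3, −0.73 for Phlda1, 0.37 for Spred1 and 0.58 for Spry2. The 6 called members had the same direction there. With slide as a fixed block 1 of the 7, Spred3, passed (−0.79, SE 0.16, limma adjusted p = 0.048).

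Against Ro25, 5 of the 7 members passed (4 lower, 1 higher), beside 3.1% of all genes (1.97% lower, 1.13% higher). The arrays did not overlap in 4 of the 7 (Spry1, Spry4, Spred1 and Spred3), and in 3.95% of all genes. Spry1 (−0.45), Spry4 (−0.86), Spred3 (−0.54) and Phlda1 (−0.45) were lower and Spred1 (0.41) was higher. Phlda1 was at the threshold (limma adjusted p = 0.048), and 8 of the 10 fits that left out 1 array of these groups lost it, with adjusted p up to 0.13. Spred2 differed by −0.27 (SE 0.088, limma adjusted p = 0.12), and of the 10 fits that left out 1 array of these groups it passed in 1, without Ro25 array 4 (−0.34, limma adjusted p = 0.024). In the other 9 the adjusted p was 0.14 to 0.28. Spry2 differed by −0.46 (SE 0.19, limma adjusted p = 0.26). On slide 6, with AP5 array 1 and Ro25 array 2, Spry4 differed by −1.42 and Spred1 by 0.41. With slide as a fixed block 1 of the 7, Spry4, passed (−1.02, SE 0.22, limma adjusted p = 0.041).

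NVP against Ro25 gave 0 of the 7, beside 0% of all genes (0 by limma, 1144 at an unadjusted p of 0.05). Phlda1 came nearest among the members, averaging −0.75 ± 0.13 in NVP and −1.02 ± 0.27 in Ro25 arrays (SD, n = 5 each), a difference of 0.27 (SE 0.12, limma adjusted p = 0.84). The order of group means was AP5, NVP, Ro25, control for Spry2 and Spry4, and AP5, Ro25, NVP, control for Spred2 and Spred3, from low to high. It was AP5, NVP, control, Ro25 for Spry1, AP5, Ro25, control, NVP for Phlda1 and Ro25, control, NVP, AP5 for Spred1. No pair among NVP, Ro25 and control passed the test for any member.

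The members did not vary as one block between arrays of a group. After subtraction of group means, Pearson's r over the 20 arrays was 0.73 between Spred2 and Phlda1, 0.62 between Spred3 and Phlda1 and 0.58 between Spred2 and Spred3. Between Spry2 and Spred3 it was −0.66, and between Spry1 and Spry4 it was 0.25. The points share arrays and reference RNA, and these values are descriptions.

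Genes most like each called member were named by Pearson's r of the log2 ratio over all 20 arrays, which includes the shared treatment difference. For Spry1 these were Pptc7 (0.95), Zfp46 (0.94) and a transcript known by an accession alone. Elmo1 (0.90), Zfpm1 (0.89) and Capsl (0.88) were most like Spry4. Spred1 was followed most closely by AW549877 (0.87), Tmem106b (0.86) and Golm1 (0.85), and Spred2 by Noct (0.95), Klf13 (0.93) and Agfg2 (0.92). For Spred3 the 3 were Bcl2l1 (0.93), Tomm40 (0.92) and Grasp (0.91), and for Phlda1 they were Pip4k2c (0.94) and 2 transcripts without a gene name (both 0.93).

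The rest of the pathway was read from lists. Over all genes tested, 6.12% passed in AP5 against control (3.59% lower, 2.53% higher), the share to set beside each count. Of 19 growth factor ligands tested in AP5 against control, 2 fell and 1 rose. Bdnf, the neurotrophin ligand of TrkB, averaged 0.70 in AP5 and 2.31 in control arrays, a log2 difference of −1.61. Pdgfb, a platelet-derived growth factor chain, fell by 0.65 and Fgf18, a fibroblast growth factor, rose by 0.71. Of 16 receptor tyrosine kinases, only Kdr, a receptor for vascular endothelial growth factor, passed (0.73), a count near the share over all genes. Of 18 adaptors, exchange factors and Ras genes, Rasgrp1, a calcium- and diacylglycerol-responsive Ras exchange factor, fell by 1.18 and Shc3, a neuronal adaptor of Trk receptors, fell by 0.36.

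Of 13 genes for Raf, MEK, ERK and the kinases that act after them, only Rps6ka5 passed. This gene, which encodes the nuclear kinase MSK1, rose by 0.92. That count is also near the share over all genes. Of 18 transcription factor genes known as ERK-induced, 8 fell and 0 rose, with a list median of −0.47. Egr3 (−1.77) and Egr1 (−1.56), zinc finger factors of the early response, fell furthest among the 4 with the lowest adjusted p, which also held Junb (−0.67) and Klf10 (−0.62). Of 15 other brakes of the pathway, 4 fell and 1 rose, with a median of −0.16. The phosphatase genes Dusp6 (−1.15), Dusp4 (−1.25) and Dusp1 (−0.71) and the G protein regulator Rgs2 (−1.14) fell, and the phosphatase gene Dusp14, named after its value was seen, rose (0.55). Of 13 genes for proteins that bind or modify Sprouty and Spred, Nf1 and Cbl among them, 0 passed, with a median of −0.0025 and a range of −0.15 to 0.17. Among 3 tested relatives of the members, Il17rd (0.24), Phlda3 (0.08) and Spry3 (−0.04), all named whatever their value, 0 passed. With NVP and with Ro25, 0 genes of these lists passed against control. Of all 19344 genes tested, 0 passed with NVP and 3 with Ro25, so these counts do not set the lists apart.

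Markers of the other cells in the culture were read in the same fit, where 6.12% of all genes passed in AP5 against control. In AP5 against control 0 of 12 neuronal, 0 of 12 astrocyte, 0 of 10 oligodendrocyte lineage and 0 of 6 endothelial and mural markers passed. Of 7 microglial markers only Csf1r, the receptor for colony stimulating factor 1, passed (0.46). The median of that list was −0.05, with a range of −0.25 to 0.46. Of 6 fibroblast markers only Col1a2, a collagen chain, passed (−0.25), with a list median of −0.03 and a range of −0.25 to 0.64. Of 8 markers of dividing cells 5 fell, with a median of −0.45, and Ccna2, cyclin A2, fell by 0.58. Their mean log2 ratio ranged from −3.06 to −2.84 in AP5, −2.69 to −2.40 in NVP, −2.90 to −2.43 in Ro25 and −2.67 to −2.35 in control arrays. The AP5 arrays thus lay below the control arrays for these markers as they did for Spry1, Spry4, Spred2, Spred3 and Phlda1, and the part of dividing cells in those differences was not tested.

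The probes lie in the following places on build mm7, per the array annotation. The probe read for Spry1 is at chr3:37455053-37455112, that for Spry2 at chr14:100321854-100321913 (its second probe at chr14:100322370-100322429), that for Spry4 at chr18:38962470-38962529 and that for Phlda1 at chr10:110970234-110970293. The probe read for Spred1 is at chr2:116922962-116923021, and the other Spred1 probes are at chr2:116918168-116918227 and chr2:116912833-116912892. The probe read for Spred2 is at chr11:19975721-19975780, its second probe at chr11:19974356-19974415, and the Spred3 probe at chr7:26098932-26098991. The annotation used here does not say which exon or untranslated region a probe lies in.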

How the data were processed

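The authors deposited scanner output of 2-colour Agilent arrays, holding linear spot intensity and a log10 ratio per spot, made by Feature Extraction (version 10.7.3.1 in the deposited headers, 11.0 in the submitters' processing notes). The authors also deposited a table of log2 ratios for 20674 probes, whose normalization and centring are not given in the sources used here. On probes well above background its 20 columns followed the normalized ratios used here with r of 0.994 or more and slopes of 0.992 to 1.12, which settles the direction. AP5 array 1 stood apart with the lowest r (0.994) and the highest slope (1.12). The other arrays had r of 0.999 or more and slopes of 0.992 to 1.02. The table's column medians were 0.030 to 0.063, and 0 of its columns were left unused. Per the labels, all samples were in Cy5, with no dye swap. The log10 ratios deposited by the authors served to set the direction of their table.

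From the intensities, background was corrected with normexp (offset 50) and each array was normalized by loess in limma 3.58.1 (R 4.3.3). Flagged spots (86 to 172 per array) and control spots were left out. Per array, 58.6 to 69.4% of probes were well above background in red. A probe was tested when it was so on at least 5 arrays (28507 of 41174 probes), and a gene was read from its brightest probe (19344 genes). Names and printed promoters came from RefSeq tables (assembly GRCm38.p6), and coordinates of probes are those of the array annotation. Groups came from the sample titles. A linear model with one mean per group (residual df 16) gave the 6 comparisons, two-sided, with Benjamini-Hochberg adjustment at 0.05. The fit was tested on simulated data. Members, lists and tests were chosen with earlier results of these data known. Named genes were the members, Spry3, up to 4 genes of lowest adjusted p per pathway list and 1 per marker list, and the 3 genes with the highest r to each called member. Alternatives were other background and scaling choices, filters, probe rules, slide, scan day, replicate number, the table of log2 ratios and leaving out each array. The astrocyte covariate was chosen after seeing the data.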

Additional observations from a re-analysis of the deposited data

Results flagged for a closer look

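In 3 of 28 sets of 5 arrays (7 members in 4 groups), 1 array lay far from the others by Dixon's test at the 95% level. Chance alone flags about 5% of such sets. For Spry1, control array 5 was high at 1.53, while the other control arrays ran from 1.33 to 1.38. For Spry2, NVP array 5 was high at 3.46, while the other NVP arrays ran from 2.68 to 2.82, and the astrocyte marker mean of that array was 4.18, the highest of the NVP arrays. For Spred2, control array 2 was low at 0.10, while the other control arrays ran from 0.42 to 0.54. Leaving out any of these arrays changed no member's call in the comparisons with control.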

How the results depend on the processing

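Under all alternatives run, each called member kept its direction in the 3 AP5 comparisons. In AP5 against control (6 of 7 members), 2 passed with median centring (Spry4 and Spred3) and 0 with slide as a fixed block. With the authors' table, and with the mean of all probes of a gene, 4 passed, all lower. Spred1 and Spred2 were lost in both. In AP5 against NVP (6), 1 passed with median centring, 1 with the slide block, 4 with the authors' table and 5 with the mean of all probes. In AP5 against Ro25 (5), 1 passed with median centring, 1 with the slide block, 3 with the 2 groups alone and 3 on the first scan day. With the authors' table, and with the mean of all probes, 4 passed there. The median SE over genes was 0.096 without and 0.225 with the slide block. The cause of the losses was not tested under any of these settings. Leaving out 1 array gave 6 to 7 (control), 6 in each case (NVP) and 4 to 6 (Ro25) members. The genome-wide count of 1183 for AP5 against control became 165 with median centring, 41 with the slide block and 775 with the 2 groups alone. The count of 1117 against NVP became 121, 108 with the slide block and 634 on the first scan day, and that of 599 against Ro25 became 85, 205 with the slide block, 235 with the 2 groups alone and 300 on the first scan day, the first of each with median centring. Same-numbered arrays correlated at −0.45 to 0.76 over 30 pairs, and 4 of 20 arrays correlated best with their own number. The pairs were not alike: arrays numbered 5 correlated at 0.57 to 0.76 in every comparison, the other numbers at −0.45 to 0.51. What the arrays numbered 5 share was not tested. The numbers were not taken to pair samples in the reported fit, and a replicate block gave 7, 6 and 4 members. The dim probes of Spred3 and Spry4 gave −1.26 and −1.07 with the scanner's processed signals, against −0.67 and −0.88 as reported, so their sizes are less certain than their direction.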
